A study of Mus musculus with 4 samples.

Results

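Open chromatin was described at the TEAD transcription factors and their cofactors in 4 mouse muscles. An ATAC-seq peak was taken when the authors' annotation gave Tead1, Tead2, Tead3, Tead4, Vgll2, Vgll3, Vgll4, Yap1 or Wwtr1 as its gene, a rule that uses gene names alone. This gave 177 of 120839 peaks. Peaks of different muscles that overlapped by at least 1 bp were merged into regions, which gave 81 of 53883 regions.

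The study profiled chromatin accessibility in extensor digitorum longus (EDL), quadriceps (Quad), soleus (Sol) and diaphragm (Dia). EDL and Quad are mainly fast-twitch muscles, Sol is the slow-twitch postural muscle and Dia is the continuously active muscle of breathing. ATAC-seq uses a transposase that cuts and tags open DNA, so a peak marks a stretch of accessible chromatin. All 4 groups were sedentary wild type mice, C57BL/6 by the labels and C57BL/6J by the study's methods, with no transgene or treatment. By the methods they were males bought at 7 to 8 weeks of age, and the labels give no age at collection. The material was powdered whole frozen muscle. Each muscle was represented by 1 peak list, whose label says pooled without the number of animals or libraries. There was therefore no replicate check and no test between muscles, and intervals below cover counting error only. In whole tissue, fewer cells of a type and less accessibility per cell cannot be told apart.

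TEAD proteins are the DNA-binding end of the Hippo pathway and recognise the M-CAT element, whose core reads CATTCC, or GGAATG on the other strand. They activate little on their own and work through cofactors: Yap1 and Wwtr1 (Taz), which enter the nucleus when Hippo kinases are inactive, and the vestigial-like proteins, which dock on the same TEAD surface. M-CAT elements were first studied in muscle promoters, Tead4 takes part in myogenic differentiation, and Vgll2 is a cofactor largely restricted to skeletal muscle.

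The lists differed in size, from 21582 peaks in Dia to 40337 in Quad, with 30136 in EDL and 28784 in Sol. The lowest peak of a list held 25 tags in Quad and 32 to 36 tags in the other lists, and a site with no listed peak may still carry signal. Score percentiles are ranks within a muscle's own list, in which 100 is the highest peak, because peak widths (188 to 232 bp) and depths differed. Of 9 fibre markers, such as Acta1 and Ckm, 9 had a promoter peak in Quad, 8 in EDL, 8 in Sol and 6 in Dia. Of 4 endothelial markers, 4 had one in EDL, Quad and Sol and 2 in Dia, and no leukocyte marker of 4 had one in any list. Peaks at any position were found for 2 leukocyte markers in Quad, 3 in EDL, 1 in Sol and 0 in Dia, and for 4, 4, 2 and 1 of 4 fibroblast markers, with a promoter peak for 1 in Sol. They were found for 3, 2, 3 and 1 of 3 smooth muscle markers, with promoter peaks for 2 in Quad and 1 in EDL. Of 2 satellite cell markers 2 had a peak in Quad and 1 in each other list, of 3 Schwann cell markers 1 had one in each list, and of 2 adipocyte markers 1 had one in EDL and 2 in Dia. The part of other cell types in the values below was not tested.

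The starts of 3 of the 4 Tead genes carried tandem copies of the TEAD protein family's own recognition core. At least 2 CATTCC cores within 30 bp of each other, counted on either strand, occurred within 500 bp of the annotated start of Tead1, Tead3 and Tead4. The same was true of 159 of 21938 protein-coding genes (0.725%) and of none of the other 6 genes described here. This grouping was chosen after the sequences had been seen. The groups are printed on the strand of the gene, from the RefSeq mm10 genome (GRCm38.p6) at starts annotated by GENCODE, with the cores in capitals.
Tead1, chr7:112679343-112679360: CATTCCtgtcctCATTCC
Tead3, chr17:28350709-28350723: CATTCCgtaCATTCC
Tead4, chr6:128300457-128300483: CATTCCagcgccCATTCCgtgCATTCC
The Tead1 pair lay inside the promoter peak of all 4 muscles. The Tead4 triplet lay inside the Dia peak only. In the same region the EDL peak lay wholly on the side of the triplet nearer the gene start, and the Quad peak overlapped only the edge of the triplet. The Tead3 pair fell between its pair of promoter regions and inside no peak. A match of letters is a description and not evidence of binding.

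Elements away from promoters are shown where the results on Vgll2, Tead4, Tead1 and Vgll4 turn on them. Peak sequences are on the plus strand of mm10, with GGAATG or CATTCC (M-CAT) and CAGCTG (a form of the E-box bound by myogenic factors such as MyoD) in capitals. The Vgll2 element ranked high in Sol alone, the Tead4 element ranked highest in EDL and low in Dia, the Tead1 element was listed in EDL and Quad only, and the Vgll4 element ranked high in every muscle.
Vgll2 upstream element, Sol peak, chr10:51970212-51970418: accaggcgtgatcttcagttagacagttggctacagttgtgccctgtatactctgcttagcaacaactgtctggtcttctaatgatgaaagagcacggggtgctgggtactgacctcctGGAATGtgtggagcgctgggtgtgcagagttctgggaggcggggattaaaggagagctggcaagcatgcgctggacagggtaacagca
Tead4 intron 2 element, EDL peak, chr6:128265131-128265339: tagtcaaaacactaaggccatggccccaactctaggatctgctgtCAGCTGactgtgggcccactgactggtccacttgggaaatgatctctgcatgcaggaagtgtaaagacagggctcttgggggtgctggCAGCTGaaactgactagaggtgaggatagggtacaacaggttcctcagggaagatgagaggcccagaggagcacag
Tead1 intron 1 element, EDL peak, chr7:112752465-112752673: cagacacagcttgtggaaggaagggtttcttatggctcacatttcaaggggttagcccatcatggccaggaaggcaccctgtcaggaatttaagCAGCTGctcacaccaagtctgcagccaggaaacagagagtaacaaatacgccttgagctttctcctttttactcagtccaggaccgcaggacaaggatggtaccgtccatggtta
Vgll4 intron 3 element, Quad peak, chr6:114889010-114889198: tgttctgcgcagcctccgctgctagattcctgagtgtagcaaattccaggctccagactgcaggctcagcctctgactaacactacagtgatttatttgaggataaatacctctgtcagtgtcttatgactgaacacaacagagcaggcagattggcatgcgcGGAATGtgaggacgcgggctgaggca
The authors annotated the Vgll2 element as intergenic, and it overlaps an exon of the predicted gene Gm40646 in GENCODE. Its GGAATG was covered by the Sol, Quad and Dia peaks but not by the EDL peak. The GGAATG of the Vgll4 element was covered in all 4 lists.

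A pair of upstream promoter sequences is shown for the promoter with the highest ranks and for the promoter listed in Sol alone. Both are the 250 bases before the start in the RefSeq promoter table (GRCm38.p6), on the strand of the gene.
Wwtr1, minus strand, chr3:57575911-57576160: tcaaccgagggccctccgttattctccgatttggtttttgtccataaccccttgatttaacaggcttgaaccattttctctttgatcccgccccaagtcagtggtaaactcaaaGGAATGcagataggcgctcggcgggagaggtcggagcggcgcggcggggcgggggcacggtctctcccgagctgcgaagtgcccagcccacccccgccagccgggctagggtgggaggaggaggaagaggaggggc
Vgll2, plus strand, chr10:52022252-52022501: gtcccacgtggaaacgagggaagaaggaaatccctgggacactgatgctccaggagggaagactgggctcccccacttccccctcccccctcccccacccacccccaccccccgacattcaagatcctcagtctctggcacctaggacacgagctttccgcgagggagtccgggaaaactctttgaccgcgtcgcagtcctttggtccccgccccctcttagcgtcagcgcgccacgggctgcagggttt
The table held 7 of the 9 genes, without Tead1 and Tead4. Of these 7, Tead3, Vgll3, Vgll4, Yap1 and Wwtr1 had an M-CAT core in these 250 bases of at least 1 start, and Tead2 and Vgll2 had none. The share over all 32851 promoters of that length was 12.6%. That share is counted per promoter and not per gene, and Tead3 and Wwtr1 had more than 1 promoter in the table.

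Peaks of the 9 genes numbered 61 in Quad, 45 in EDL, 41 in Sol and 30 in Dia. Vgll4, Tead1 and Vgll2 held 125 of the 177 peaks, and Tead2 had none. The Quad count exceeded that of Sol at 5 of the 8 genes with peaks, against 45.7% of the 17157 genes with a peak in any list, and fell below it at 2 genes, Vgll2 and Wwtr1, against 12.4%. With each list limited to its 20000 highest peaks, 3 genes had more peaks in Quad, against 20.7% of genes, and 4 had fewer, against 20.9%. More genes with an excess in Quad were thus seen with full lists than with lists of equal length.

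**Figure D1:**
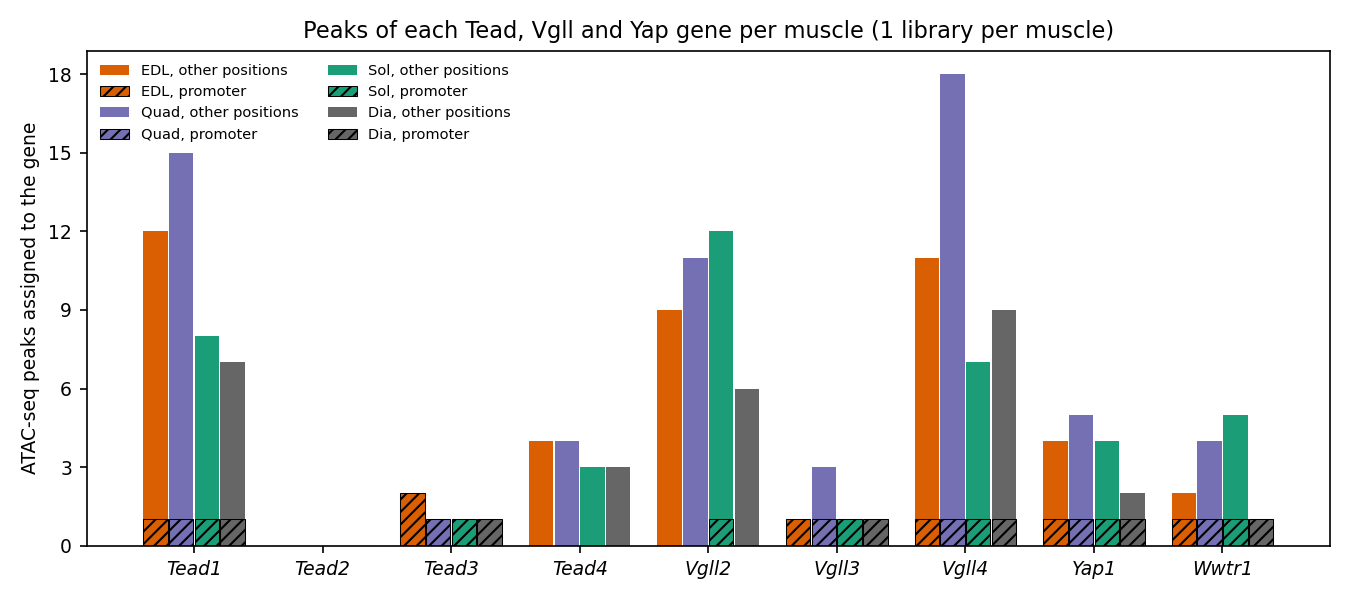
Number of ATAC-seq peaks assigned to each gene (y axis) in EDL, Quad, Sol and Dia, 1 pooled list each, with promoter peaks hatched and other positions plain. Vgll4 reached 18 peaks in Quad against 7 in Sol, Vgll2 was the largest in Sol with 12, and Tead2 had no bar.

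Among the TEAD factors, Tead1 (chr7:112679318-112906807, 227 kb, plus strand), a broadly expressed factor that binds M-CAT elements of muscle genes, had the most peaks. There were 15 in Quad, 12 in EDL, 8 in Sol and 7 in Dia, and 6 of its 18 regions were listed in all 4. Within the gene body and 10 kb flanks there were 18, 14, 10 and 8 peaks in the same order, 9 of them assigned to Rassf10. In Quad Tead1 had more assigned peaks than 99.4% of genes with a peak in any list. Its promoter peak, centred 24 to 27 bp past the start, ranked at percentile 81.3 in Quad, 66.4 in EDL, 68.6 in Sol and 66.8 in Dia. The promoter thus held a similar rank in 3 muscles and a higher one in Quad.

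The strongest Tead1 signal lay inside the gene, between 62.6 and 84.4 kb from the start, around an internal start site. In intron 1, a region at 62.6 kb (chr7:112741719-112742038) ranked at percentile 90.1 in Quad, 78.0 in EDL, 91.7 in Sol and 60.7 in Dia. A region at 77.5 kb (chr7:112756691-112756987) ranked at 91.0 in Quad, 78.8 in EDL, 84.5 in Sol and 44.1 in Dia. In intron 2, a region at 84.4 kb (chr7:112763466-112763928) ranked at 93.9 in Quad, 88.8 in EDL, 84.5 in Sol and 70.4 in Dia. Each outranked the Tead1 promoter in EDL, Quad and Sol. Dia was the lowest muscle at each, with the reservation that its peak at 84.4 kb overlapped the EDL and Sol peaks but not the Quad peak.

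Between 64.5 and 96.6 kb from the start, 4 Tead1 regions were listed in EDL and Quad and in neither Sol nor Dia. Over the 9 genes 8 of 81 regions had this combination, against 8.05% of all regions. The 4 Tead1 regions ranked at 49.7, 50.7, 79.4 and 42.1 in EDL and at 80.8, 71.9, 67.4 and 56.8 in Quad, in order along the gene. The third is the Tead1 element printed above, with 118 tags in EDL and 68 in Quad and an E-box in both peaks. The first, at 64.5 kb, also held an E-box. Single-list Tead1 regions ranked between percentile 4.70 and 64.0, and 4 of the 7 were from Quad. The region at 146.9 kb held 2 further M-CAT cores inside all 4 peaks and ranked at 56.8 in Quad, 34.3 in EDL, 58.6 in Sol and 26.5 in Dia.

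Tead4 (chr6:128224288-128300823, 76.5 kb, minus strand) had 4 assigned peaks in Quad, 4 in EDL, 3 in Sol and 3 in Dia and none in the promoter class. Within its body and 10 kb flanks Tead4 had 6, 5, 4 and 4 peaks in the same order, 5 of them assigned to 9330102E08Rik. Its peak nearest the start was annotated as 5′ UTR of exon 1, 221 bp from the start in EDL, 240 bp in Quad and 271 bp in Dia. That region (chr6:128300426-128300696) ranked at percentile 46.6 in EDL, 52.1 in Quad and 61.4 in Dia, with no Sol peak. It was the only Tead4 region at which Dia ranked above another muscle.

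The intronic elements of Tead4 showed the opposite order. The intron 2 region printed above (chr6:128265131-128265501) ranked at 87.1 in Quad, 92.5 in EDL, 77.9 in Sol and 32.7 in Dia. It had a score of 17.1 in EDL, from 178 tags, and 6.04 in Dia, from 60 tags. The EDL-to-Dia score ratio was 2.83 (counting interval 2.10 to 3.86), against a median of 1.03 over all regions shared by these lists. It was the largest ratio between muscles at the regions of these genes, and the counting interval does not allow for picking it. EDL and Dia peaks were offset here, and only 71 bp were common to all 4 peaks. A second intron 2 region (chr6:128253106-128253439) ranked at 85.6 in Quad, 84.0 in EDL, 78.3 in Sol and 39.2 in Dia. An intron 1 region (chr6:128275553-128275764) ranked at 70.2 in EDL, 88.0 in Quad and 63.9 in Sol and was not listed in Dia. EDL ranked above Quad at the first of these elements and below it at the others. Sol ranked below both at each, and Dia was lowest or not listed.

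The peaks assigned to Tead3 (chr17:28331671-28350817, minus strand) were promoter peaks only. Within its body and 10 kb flanks Tead3 had 2 peaks in Quad, 3 in EDL, 2 in Sol and 2 in Dia, 4 of them assigned to Rpl10a. An outer region (chr17:28350777-28351011) was listed at percentile 43.2 in EDL, 67.9 in Sol and 55.1 in Dia, and an inner region (chr17:28350343-28350658) at 53.4 in EDL and 73.3 in Quad. Every muscle therefore had a Tead3 promoter peak, though Quad shared no region with Sol or Dia. Tead2 (chr7:45215753-45233644, plus strand), best known for its role in early embryos, had no peak in any list. The nearest peak of any gene lay 11.0 kb from its body in EDL, 23.6 kb in Quad, 23.6 kb in Sol and 33.3 kb in Dia.

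**Figure D2:**
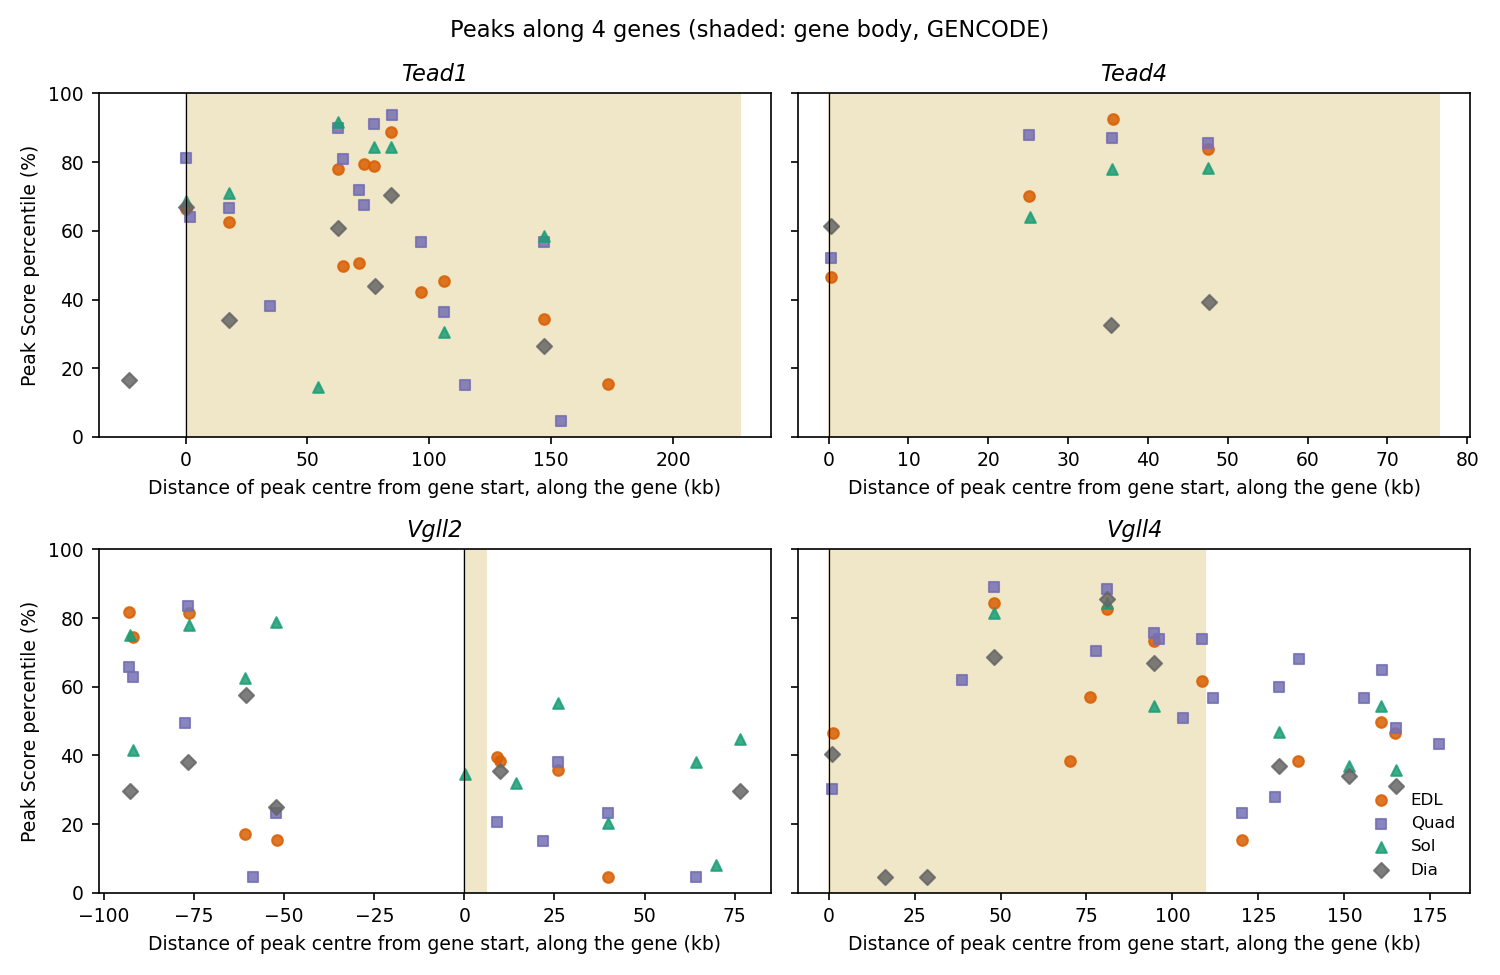
Peaks of Tead1, Tead4, Vgll2 and Vgll4 by distance of the peak centre from the gene start in kb (x axis, positive into the gene) and Peak Score percentile (y axis), with 1 symbol per muscle and the gene body shaded. The highest Tead1 rank of each muscle lay in the region at 62.6 or 84.4 kb. Dia lay below the other muscles in the Tead4 introns, and Sol alone was high at the Vgll2 element at -52.2 kb.

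Of the vestigial-like cofactors, Vgll2 (chr10:52022502-52028471, 5.97 kb, plus strand) had 11 peaks in Quad, 9 in EDL, 12 in Sol and 6 in Dia. In Sol it had more peaks than 99.6% of genes. With lists limited to 20000 peaks it had 3 in Quad, 6 in EDL, 10 in Sol and 6 in Dia, and within the gene body and 10 kb flanks it had 1, 2, 2 and 1. All but 1 of its 17 regions lay outside the gene, over a span of 170 kb. By GENCODE, 7 regions with 17 peaks had a peak centred in the predicted gene Gm40646, and 5 with 11 peaks lay in Ros1, which encodes a receptor tyrosine kinase. The assignment to Vgll2 is by nearest start and was not tested by contact or expression.

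The Vgll2 promoter was listed in Sol alone (chr10:52022462-52022668), at percentile 34.6 with 61 tags (counting interval 46.7 to 78.4). The nearest peak of another list lay 8749 bp away. Far upstream, the element printed above (chr10:51970169-51970563, -52.2 kb) ranked at 23.4 in Quad, 15.4 in EDL, 78.8 in Sol and 25.0 in Dia. The range of 63.3 percentile points was the largest of the 19 regions listed in all 4 muscles.

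In scores, that element had 4.52 in EDL (47 tags), 4.74 in Quad (37 tags), 11.4 in Sol (119 tags) and 5.54 in Dia (55 tags). The Sol score was 2.52 times that of EDL (counting interval 1.78 to 3.61), 2.41 times that of Quad (1.65 to 3.57) and 2.06 times that of Dia (1.48 to 2.88). Over all shared regions the median ratios were 1.01, 0.910 and 1.04. The tag counts of Sol thus stood outside the counting error of each other muscle, which does not cover variation between animals, and the element was singled out for its range. Peak centres were spread over 174 bp, with the EDL peak the farthest off and 47 bp common to all 4.

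A second upstream Vgll2 region, at -60.8 kb (chr10:51961576-51961888), ranked at 17.1 in EDL, 62.5 in Sol and 57.6 in Dia and was not listed in Quad. Sol and Dia scores were 8.60 and 8.36, with a ratio of 1.03 (0.755 to 1.40), and the EDL score was 4.62. Regions still farther upstream had another order. At -92.9 kb (chr10:51929376-51929716) the percentiles were 65.8 in Quad, 81.7 in EDL, 75.2 in Sol and 29.6 in Dia. At -76.6 kb (chr10:51945746-51946072) they were 83.6 in Quad, 81.4 in EDL, 77.9 in Sol and 38.1 in Dia. Elements on one side of the same gene therefore differed in which muscles ranked high, EDL being high at the distant pair and low at the nearer pair. Downstream, 3 regions were listed in Sol without EDL or Quad, at 14.4, 69.9 and 76.5 kb, with Sol percentiles of 32.0, 8.21 and 44.8. Those at 14.4 and 69.9 kb were in Sol only, as were 8.62% of all regions. Other downstream regions were listed without Sol, at 9.09 kb in EDL and Quad, at 9.91 kb in EDL and Dia and at 21.7 kb in Quad.

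Vgll4 (chr6:114860628-114969994, 109 kb, minus strand), which competes with Yap1 for TEAD binding, had the most peaks of the 9 genes. There were 18 in Quad, 11 in EDL, 7 in Sol and 9 in Dia, in 24 regions, of which 4 were listed in all muscles and 9 in Quad alone. In Quad it had more peaks than 99.8% of genes. By GENCODE, 11 of the regions, with 20 peaks, lay in the neighbour Atg7, an enzyme of autophagosome formation. With lists limited to 20000 peaks it kept 13, 10, 7 and 7 peaks in Quad, EDL, Sol and Dia.

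The Vgll4 promoter peak (chr6:114921722-114922032) lay at an internal start, 48.1 kb from the gene start in GENCODE. It ranked at percentile 89.0 in Quad, 84.5 in EDL, 81.6 in Sol and 68.7 in Dia. Near another start, in the first part of the gene, a region 216 to 348 bp past it (chr6:114968751-114969081) ranked at 46.6 in EDL, 30.2 in Quad and 40.5 in Dia and was not listed in Sol. The region at the internal start was the higher of the pair in every muscle that listed both.

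The Vgll4 intron 3 element printed above (chr6:114888975-114889269) was nearly level, at 88.5 in Quad, 82.7 in EDL, 84.5 in Sol and 85.6 in Dia. Its range of 5.81 points was the smallest of the 14 non-promoter regions listed in all 4 muscles, and it was the highest-ranked Dia peak of the 9 genes apart from the Wwtr1 promoter. A region 94.6 kb from the start ranked at 75.8 in Quad, 73.4 in EDL, 54.5 in Sol and 66.8 in Dia, the one Vgll4 region at which Sol was lowest of 4. Among the 9 Quad-only regions, percentiles ran from 28.0 to 74.0, above the lowest ranks of that list.

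Vgll3 (chr16:65815257-65866368, 51.1 kb, plus strand), a vestigial-like cofactor studied in myogenesis, had 1 peak in EDL, Sol and Dia each and 3 in Quad. Its promoter region (chr16:65814968-65815391) ranked at 45.0 in Quad, 24.0 in EDL, 34.6 in Sol and 34.1 in Dia, the lowest of the promoters listed in all muscles. The peak centres of this region were spread over 204 bp, with only 16 bp common to all of its peaks. With lists limited to 20000 peaks Vgll3 had 1 peak in Sol, 1 in Dia and none in EDL or Quad. One of the Quad peaks lay 390 kb past the start, at percentile 7.89.

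Of the Hippo-regulated coactivators, Wwtr1 (chr3:57455649-57575910, 120 kb, minus strand) had 4 peaks in Quad, 2 in EDL, 5 in Sol and 1 in Dia. Its promoter region (chr3:57575724-57575961) ranked at 92.3 in Quad, 91.7 in EDL, 93.7 in Sol and 89.5 in Dia, the highest promoter rank of the 9 genes in each list. The M-CAT core of its printed promoter lay upstream of these peaks and inside none. Of the peaks assigned to Wwtr1, the Dia list held the promoter alone. With all peaks in the gene body and 10 kb flanks, Wwtr1 had 7 in Quad, 3 in EDL, 6 in Sol and 3 in Dia, since 7 of these peaks were assigned to Tm4sf4, so the order of Quad and Sol turned with the assignment. With lists limited to 20000 peaks it had 2 in Quad, 2 in EDL, 3 in Sol and 1 in Dia. An intron 2 region (chr3:57504841-57505140) with an AP-1 word (TGANTCA) ranked at 45.5 in EDL, 55.7 in Quad and 40.5 in Sol, and 2 further intronic regions were listed in Sol alone at 48.0 and 11.4.

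Yap1 (chr9:7931999-8004596, 72.6 kb, minus strand) had 5 peaks in Quad, 4 in EDL, 4 in Sol and 2 in Dia. With lists limited to 20000 peaks it had 2 in Quad, 3 in EDL, 3 in Sol and 2 in Dia, so the order of Quad and Sol turned. Its promoter region (chr9:8004468-8004790) ranked at 60.1 in Quad, 51.6 in EDL, 48.0 in Sol and 56.8 in Dia, with an M-CAT core in the EDL, Sol and Dia peaks. An intron 2 region (chr9:7983736-7984017) ranked at 63.0 in Quad, 67.1 in EDL, 67.9 in Sol and 41.7 in Dia. In EDL, Quad and Sol this intron element stood above the promoter and in Dia below it. The promoter of Wwtr1 outranked that of Yap1 in all 4 lists, a comparison of ranks of open chromatin and not of expression.

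**Figure D3:**
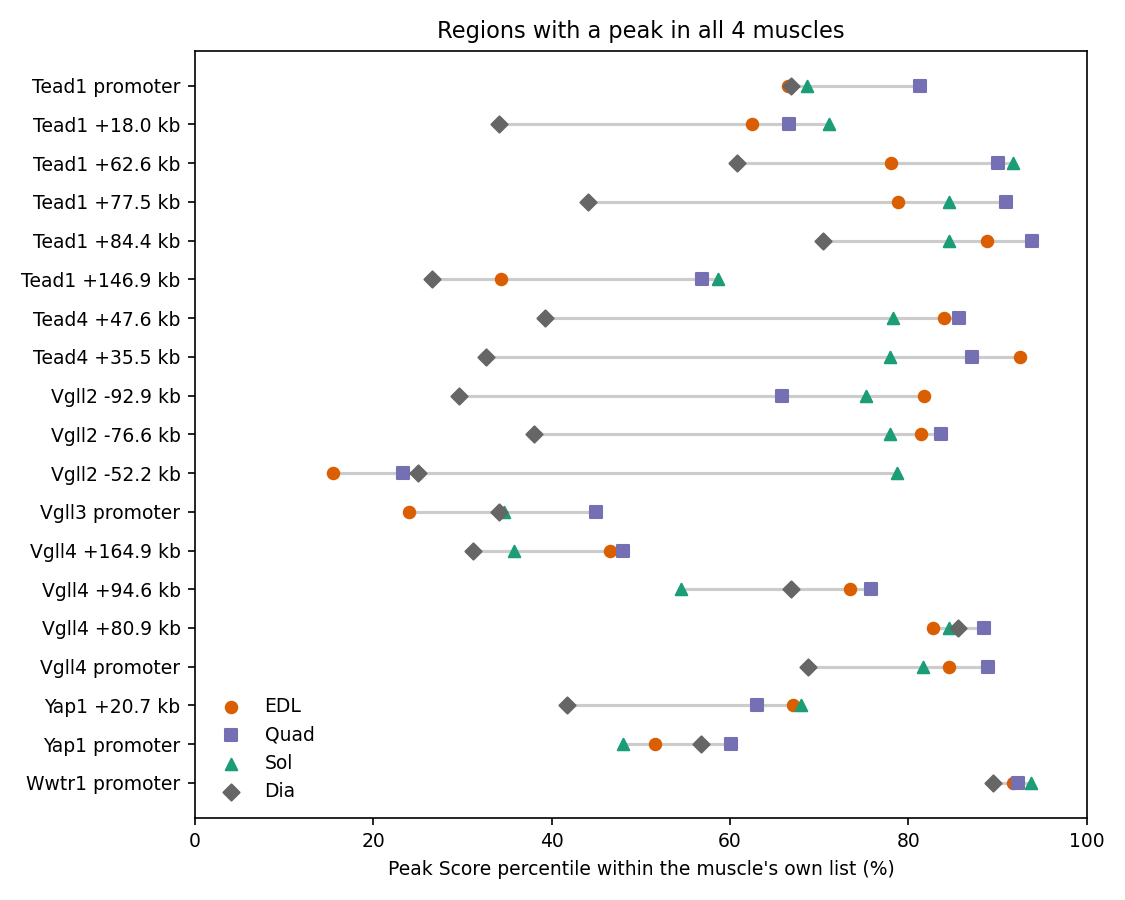
Peak Score percentile within each muscle's own list (x axis) for the 19 regions listed in all 4 muscles (rows, named by gene and by promoter or distance from the gene start in kb), with 1 symbol per muscle and a line over the range. Wwtr1 and the Vgll4 element at 80.9 kb were nearly level, and the Vgll2 element at -52.2 kb had the widest range, 63.3 points.

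Across the 19 regions listed in all muscles, Quad had the highest percentile in 11, Sol in 6, EDL in 2 and Dia in 0. Over all 14497 such regions the shares were 57.5% for Quad, 17.7% for Sol, 18.4% for EDL and 6.49% for Dia. Dia was lowest in 13 of the 19, against 52.3% of all such regions. The difference between these 19 regions and all regions, and the part of list length in the order, were not tested.

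Ranks at shared regions were most alike between EDL and Quad and least alike between EDL and Dia. Spearman's rho over shared regions was 0.859 for EDL and Quad (37 regions) and 0.819 for Quad and Sol (30 regions), against 0.864 and 0.841 over all shared regions. It was 0.424 for EDL and Dia (24 regions), 0.481 for Sol and Dia (24 regions) and 0.627 for Quad and Dia (22 regions), against 0.832, 0.851 and 0.848. It was 0.680 for EDL and Sol (29 regions), against 0.855. These are descriptions over regions of few genes that share libraries and base composition, and these regions and all regions also differ in their share of promoters.

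The sharing of regions between muscles was close to that of the genome. Of the 81 regions, 19 (23.5%, interval 15.6% to 33.8%) were listed in all 4 muscles, against 26.9% of all regions. A further 36 (44.4%, 34.1% to 55.3%) were listed in 1 muscle, against 42.6%. Of the 8 promoter regions 5 were listed in all muscles, against 66.1% of promoter regions. Of the 73 others 14 were (19.2%, 11.8% to 29.7%), against 16.0%, and 35 (47.9%, 36.9% to 59.2%) were in 1 list, against 50.5%. By gene, a promoter peak in all 4 lists was found for 6 of the 8 genes with a peak, namely Tead1, Tead3, Vgll3, Vgll4, Yap1 and Wwtr1, against 40.8% of 17157 genes. These shares lay within counting error of the background or rested on very few regions.

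**Figure D4:**
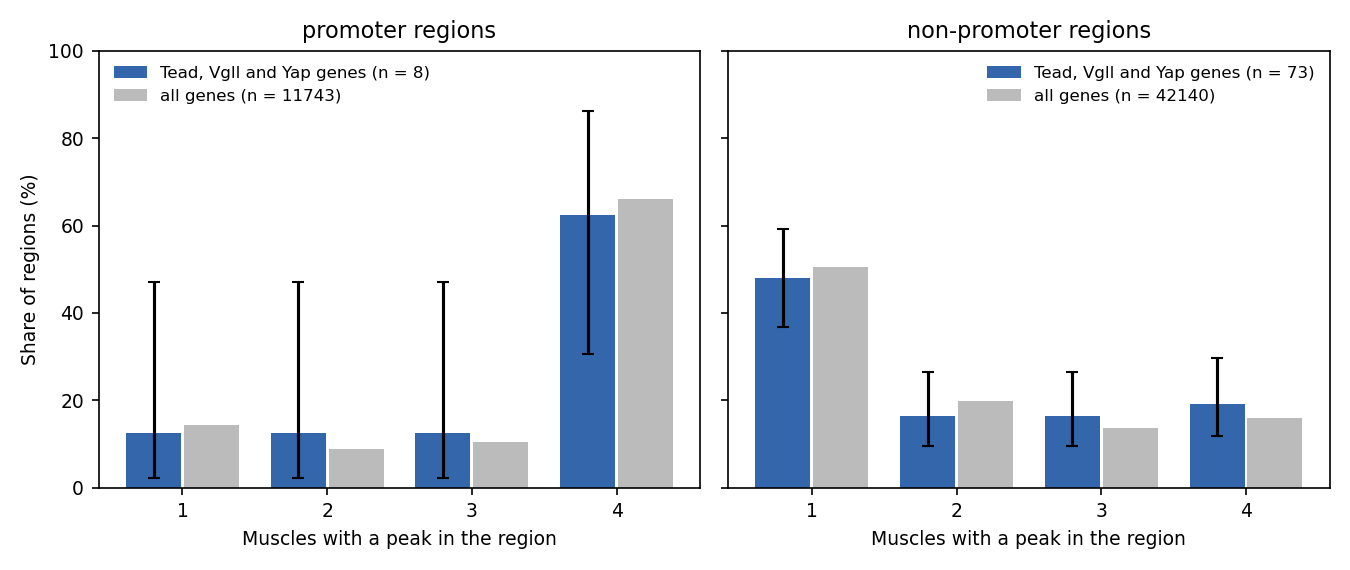
Share of merged regions (y axis, %) with a peak in 1, 2, 3 or 4 muscles (x axis) for the 9 genes and for all genes, split into promoter and other regions, with 95% Wilson intervals of counting error on the bars of the 9 genes. The intervals include the share over all genes in every category.

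By combination, 21 of the 81 regions were listed in Quad only, against 22.7% of all regions, 7 in Sol only, against 8.62%, 5 in EDL only, against 6.71%, and 3 in Dia only, against 4.61%. EDL and Quad without the others shared 8 regions, against 8.05% of all regions, and EDL, Quad and Sol without Dia shared another 8, against 8.09%. Of the Sol regions 73.2% had a Quad peak, against 75.6% of all Sol regions, and of the Quad regions 49.2% had a Sol peak, against 54.0%. Of the Dia regions 80.0% had an EDL peak, against 77.3%, and of the EDL regions 53.3% had a Dia peak, against 55.4%.

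Peaks of these genes were mostly intronic and distant from starts. Introns held 43 of 61 in Quad, 29 of 45 in EDL, 28 of 41 in Sol and 16 of 30 in Dia. Promoters held 9.84% (4.59% to 19.8%) in Quad, 15.6% (7.75% to 28.8%) in EDL, 17.1% (8.53% to 31.3%) in Sol and 20.0% (9.51% to 37.3%) in Dia. Over all peaks the promoter share was 25.5% in Quad, 30.7% in EDL, 31.9% in Sol and 41.3% in Dia, above the interval of these genes in every list. The lists hold the same genes and are not separate observations, and Vgll4, Tead1 and Vgll2 held 125 of the 177 peaks. The median distance to the assigned start was 34708 bp in Quad, 25153 bp in EDL, 35524 bp in Sol and 20195 bp in Dia, against 13561, 10482, 10369 and 3754 bp over all peaks.

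Outside promoters the median percentile was 56.8 in Quad, 49.7 in EDL, 51.2 in Sol and 36.1 in Dia, against 40.0, 38.3, 38.2 and 34.1 over all such peaks. Inside promoters it was 77.3, 53.4, 67.9 and 61.8 in the same order, against 81.3, 76.3, 75.7 and 74.1. Non-promoter peaks of these genes therefore ranked above the median of their class in each list, by the smallest margin in Dia, and promoter peaks below it.

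M-CAT cores were found in 13.1% of peaks of these genes in Quad (6.80% to 23.8%), 15.6% in EDL (7.75% to 28.8%), 19.5% in Sol (10.2% to 34.0%) and 30.0% in Dia (16.7% to 47.9%). Over all peaks the shares were 10.7%, 12.2%, 11.9% and 11.7%. The Dia interval, from 9 of 30 peaks at Tead1, Tead3, Tead4, Vgll2, Vgll3, Vgll4 and Yap1, lay above the share of all Dia peaks. Promoter peaks contributed 3 of 6 in Quad (18.8% to 81.2%), 4 of 7 in EDL (25.0% to 84.2%), 2 of 7 in Sol (8.22% to 64.1%) and 4 of 6 in Dia (30.0% to 90.3%), against 6.51%, 7.58%, 7.32% and 7.80% of all promoter peaks. These 4 intervals lay above the shares of all promoter peaks, from few peaks at largely the same promoters in each list. Outside promoters the shares were 9.09%, 7.89%, 17.6% and 20.8%, with intervals that included the 12.2% to 14.5% of all such peaks.

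By region, M-CAT cores were in 15 of 81, the E-box in 24, TGANTCA in 10 and the MEF2 site (CTA, 4 letters of A or T, then TAG) in 3. Over all regions the shares were 14.5%, 23.4%, 10.8% and 2.05%. All searches covered both strands, and words could overlap. The E-box was in 2 of the 4 Tead1 regions that EDL and Quad shared alone and in none of the Wwtr1 or Yap1 regions.

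The other Hippo pathway genes, a list of 30 upstream kinases, scaffolds, cofactors and Yap and TEAD targets, had a lower mean number of peaks per gene. They had 99 peaks in Quad, 77 in EDL, 65 in Sol and 54 in Dia. Their means per gene were 3.30, 2.57, 2.17 and 1.80, against 6.78, 5, 4.56 and 3.33 for the 9 genes. Vgll4, Tead1 and Vgll2 held 125 of the 177 peaks of the 9 genes. The remaining members had 0 to 5 peaks each in Quad, so the higher mean was not a trait of every gene. Of the 30, 16 had a larger count in Quad than in Sol, against 45.7% of all genes with a peak, and 5 a smaller one, against 12.4%. A promoter peak in all 4 lists was found for 14 of them, against 40.8%. Of their 138 regions 34 (24.6%) were listed in all muscles, against 26.9%. Vgll1, the vestigial-like cofactor outside the set above, had no peak in any list.

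The pathway genes with most regions were Fat4, an atypical cadherin, and Ctgf, a Yap target, with 11 each, then Amotl1, which binds Yap, with 10, and Tgfb2, a growth factor, with 9. Ptpn14 and Amot followed with 8 each. Amotl1 had 8 peaks in Quad, 5 in EDL, 1 in Sol and 2 in Dia, and Tgfb2 had 5, 3, 0 and 2. Amotl1 and Tgfb2 thus shared with Vgll4 a lower number in Sol than in EDL and Quad, as did Ptpn14 with 6 in Quad, 4 in EDL and 1 in Sol. Fat4, with 6 in Quad, 7 in EDL and 7 in Sol, did not. Nor did Amot with 5, 6 and 6, or Ctgf with 7, 5 and 5. The Sol list was shorter than those of EDL and Quad, and the share of all genes with this order was not counted.

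Genes at large whose counts over the 4 lists were nearest to those of Vgll4 were found by summed absolute difference. Mbnl1, a splicing regulator of muscle, differed by 4 peaks, with 19 in Quad, 11 in EDL, 9 in Sol and 10 in Dia. Irf2bpl and Mkl2, a cofactor of serum response factor, differed by 5. Next, at 6, came 2010106C02Rik and 4921525O09Rik, the first by symbol of 6 tied genes.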

How the data were processed

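ATAC-seq was given as 1 pooled sample from each of 4 muscles, with the number of libraries pooled not stated. Per the study's methods the authors aligned reads with Bowtie2 at default settings to mm10, kept 1 tag per start position, called peaks with HOMER findPeaks and annotated each to the nearest start. The deposited Peak Score is a tag count scaled by HOMER to library size, and 1 list per muscle was given. Scores under 10 fell on whole multiples of 1 step in 99.2% to 100% of peaks, from which tag counts were computed on HOMER's default scale of 10 M tags, and scores above 10 are rounded in the files. Library totals on that scale came to 78.1 M tags in Quad, 99.3 M in Dia, 104 M in EDL and 105 M in Sol. Gene bodies came from GENCODE vM21. Percentiles, merged regions, 95% Wilson intervals, exact intervals of tag ratios and motif words were computed with Python 3.11.15, pandas 2.3.3 and scipy 1.17.1. All but the intervals of tag ratios were tested on simulated data or known answers. Peaks outside the numbered and X or Y chromosomes, 16 to 19 per list, were left out of motif searches. The genes and lists were chosen with earlier results of these data known. Named were all 9 genes, pathway genes with no peak or most regions, 5 genes with counts most like Vgll4, and host genes.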

Additional observations from a re-analysis of the deposited data

How the results depend on the processing

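No paired analysis was possible because each muscle had a single pooled list, so no replicate could be left out either. Of 46 alternative values for the summary measures 34 stayed within 1.5 times or within the counting interval and 12 moved. With the 20000 highest peaks of each list, Quad peaks of the 9 genes fell to 36, the share of regions in 1 list to 29.8%, the median percentile to 37.1 in EDL and 38.2 in Quad, and Quad peaks of the pathway list to 56. With the upper 50% of each list, 36 peaks remained in Quad, 23 in EDL, 21 in Sol and 11 in Dia. Within 50 kb of the start, 37 remained in Quad and 24 in Sol. Ranked among peaks of the same class, the Quad median rose to 66.1. Assignment by gene body and 10 kb flanks gave 51, 39, 32 and 27 peaks in Quad, EDL, Sol and Dia. At 50% reciprocal overlap 19.3% of regions were in all lists and 52.3% in 1 list. The M-CAT share in a 200 bp window was 14.8% in Quad, 17.1% in Sol, and 15.6% in EDL and 30.0% in Dia. The lowest listed peaks held 25 to 36 tags, and weaker signal may be missing from the lists. The part of depth in the calls was not tested.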
